A study of Rattus norvegicus with 17 samples.

Results

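The respiratory chain and ATP synthase of liver mitochondria were examined in rats with a blocked bile duct, through the transcripts of their nuclear-encoded subunits. Members were all genes in the array's platform annotation whose symbol starts with Nduf, Sdh (followed by a to d), Uqcr, Cox4 to Cox8 or Atp5. This gave 90 of the 14217 genes that have a probe set naming them alone, and 83 of them passed the filter on dim signals described further on. Of the 90, 76 are structural subunits and 14 are assembly factors, regulators, a paralog or a pseudogene that carry the same name stems. Complex I had 34 structural subunits on the array, complex II 4, complex III 7, complex IV 16 and complex V 15.

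Liver RNA of 17 rats was hybridised to Affymetrix Rat Genome 230 2.0 arrays, with 1 array per rat. Sham rats (6) were given an abdominal incision alone, with saline delivered from an osmotic minipump under the skin. In ligated saline rats (6) the bile duct was tied and saline infused in the same way, and ligated ghrelin rats (5) were tied and infused with ghrelin, a peptide hormone of the stomach, at 10 µg/kg/day. Every rat was operated on at week 7 and killed at week 9, and no sham rat received ghrelin, so ghrelin was tested in ligated liver alone. Genotype, strain and sex are not given in the labels used here, and rats are numbered within their group in the order of deposit.

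Complexes I to IV sit in the inner mitochondrial membrane and pass electrons from NADH and succinate, through ubiquinone and cytochrome c, to oxygen. Complexes I, III and IV pump protons as they do so, and complex V, the ATP synthase, uses the proton gradient to make ATP. Hepatocytes are rich in mitochondria, and most of the subunits are encoded in the nucleus, made in the cytosol and imported. Nuclear respiratory factor 1 (NRF-1), ETS-family factors such as GABP, the oestrogen-related receptor alpha (ERR-alpha) and YY1 are known regulators of these genes.

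The promoters are shown here because 35 structural subunits fell after ligation. RefSeq promoters of the GRCr8 build, 300 bases each (250 before the gene start and 50 after), matched 82 of the 90 members and were set beside all 33469 promoters of the same table, both strands being searched. The YY1 motif, spelled by the capitals of the first windows and holding an ATG, stood in 9 of 82 member promoters (11.0%) and in 0.675% of all promoters. In complex I it stood in 7 of 32 promoters (21.9%). The ETS letters CCGGAAG stood in 30.5% of member promoters and 8.75% of all, the NRF-1 motif of the second windows in 6.10% and 0.852%, the ERR-alpha letters TNAAGGTCA in 3.66% and 1.20%, and TATAAA in 9.76% and 14.2%. Windows of 30 bases from 5 complex I genes with the YY1 letters in capitals follow, 5′ to 3′ on the gene's strand.
Ndufs7: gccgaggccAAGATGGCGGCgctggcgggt
Ndufa6: ttccttagcAAGATGGCGGCcgcggccagc
Ndufb8: gagaaggtgAAGATGGCGGCgtcccgggct
Ndufs6: gtcgtcggcAAGATGGCGGCggcgctgacc
Ndufs4: gcccacaggAAGATGGCGGCggtctcaatg

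These windows lie at chr7:10110474-10110503 (minus strand) for Ndufs7, chr7:115750282-115750311 (minus strand) for Ndufa6, chr1:253362895-253362924 (minus strand) for Ndufb8, chr1:31797414-31797443 (plus strand) for Ndufs6 and chr2:47794890-47794919 (minus strand) for Ndufs4. In each of the 5 the YY1 letters begin between 5 and 24 bases into the transcript. Ndufa2, Ndufa9, Ndufaf8 and the complex III gene Uqcrc1 held them as well. A second set of windows shows the NRF-1 letters, in capitals, in 1 complex I gene and 2 ATP synthase genes; in Ndufa11 2 matches overlap.
Ndufa11: gcgctgtGCGCATGCGCATGCGCacaggcc
Atp5me: ttgcgctacgGCGCATGCGCtttcctggct
Atp5po: acgccgacgcGCGCATGCGCtctggcatca

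They lie at chr9:1637510-1637539 (plus strand), chr14:1464774-1464803 (plus strand) and chr11:44657523-44657552 (minus strand), between 97 and 59 bases before the gene starts. Of the 39 members lower after ligation that had a promoter, 6 (15.4%) held the YY1 letters. Of the 37 other measured members 3 (8.11%) did. Complex I held 7 of the 9 promoters with these letters, and 24 of its 34 measured subunits fell. The NRF-1 letters stood in 5.13% of the members that were lower and 8.11% of the others, and the ERR-alpha letters in 2.56% and 5.41%. Whether any of these letters go with the fall was not tested. Ndufs7 and Ndufa6 were among the complex I subunits that fell most, while Ndufs4, with the same letters at the same place as Ndufs7, stood at a log2 change of -0.004 ± 0.06 (SE). The ETS letters stood in 30.8% of the members that were lower and 35.1% of the others.

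Values are GCRMA intensities on the log2 scale. A probe set counted as measured when its intensity was over the median of the whole data set (15.5, which is 3.95 in log2) on at least 5 arrays, and a gene was read from its brightest measured probe set naming it alone. A change was called when limma's p, adjusted by the Benjamini-Hochberg method over all measured probe sets, was under 0.05. Levels are not compared between genes, because probe sets differ in response. No batch is named in the labels.

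Ligated liver differed from sham liver over most of the array: 64.7% of the 9736 measured genes were called, 27.2% lower and 37.5% higher. The median log2 change over all genes was 0.07, and array medians rose with ligation, from 14.2 to 14.7 in sham rats to 16.1 to 17.6 in ligated saline rats and 15.4 to 16.4 in ligated ghrelin rats. Hepatocyte markers were bright in every group: the summed intensity of 9 was 212850 to 235810 in sham, 195154 to 231126 in ligated saline and 199884 to 223027 in ligated ghrelin rats, with 3 of the 9 (Tat, Asgr1 and Ttr) called lower after ligation. The log2 change of all 9 lay below 0 (median -0.06, lowest -0.91), against 45% of all genes. All 8 cholangiocyte markers were higher after ligation (summed intensity 365 to 698 in sham and 5026 to 14846 in ligated saline rats), as were all 9 stellate cell and myofibroblast markers (3206 to 4558 against 18642 to 37915) and all 6 macrophage markers (4101 to 8217 against 13108 to 16342). The part of these other cells in the results that follow was not tested, and in whole liver fewer cells of a type and less RNA per cell cannot be told apart.

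After ligation 35 of the 70 measured structural subunits fell and none rose, beside a background of 27.2% of all genes lower and 37.5% higher. The median log2 change of the subunits was -0.17, and 63 of the 70 lay below 0, against 45% of all genes. Complexes I and II held most of the 35: 24 of 34 subunits of complex I fell (median -0.29) and all 4 of complex II (median -0.26). In complex III 2 of 7 fell (median -0.14), in complex IV 2 of 10 (median -0.12) and in complex V 3 of 15 (median -0.09). The subunits are bright, and among the 2001 genes with a mean log2 value over 10, a comparison chosen after seeing the data, 37.5% were lower and 32.9% higher, with a median of -0.05. Of the 67 subunits in that range 33 were lower.

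How many subunits fell depends on the scaling between arrays. The order of the complexes by their median change, from I to V, was the same on the deposited values and after quantile normalization. Setting array medians equal moves the change of every gene by the same amount, so it could not alter that order. The order by the share called lower differed between the 3 scalings tried. With array medians set equal, 33 subunits of complex I, 4 of complex II, 6 of complex III, 9 of complex IV and 13 of complex V were lower, beside 39.9% of all genes. The array medians (14.2 to 17.6) lie near the filter level of 15.5, so dim probe sets set this scaling. Of the subunits 67 have a mean log2 value over 10, and whether the shift applies to signals that bright was not tested. With quantile normalization 17, 2, 1, 2 and 3 were lower, beside 36.3% of all genes, and 4 subunits were higher (Ndufb4, Ndufc2, Uqcrh and Cox6b1), beside 32.1% of all genes. The subunits' median lay 0.24 below the median of all genes on the deposited values. Equal medians leave that gap as it is, and with quantile normalization it was 0.03. Of all genes called, 58.0% were higher as deposited, 46.9% under quantile scaling and 41.8% under equal medians. Lower under all 3 scalings were 17 subunits of complex I, 2 of complex II (Sdha and Sdhc), 1 of complex III (Uqcrfs1), 2 of complex IV (Cox5a and Ndufa4) and 3 of complex V (Atp5me, Atp5f1a and Atp5mpl).

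**Figure D1:**
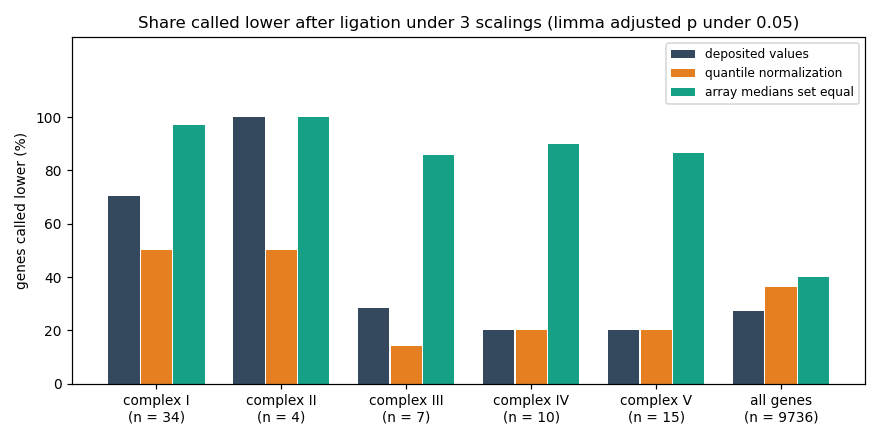
Share of measured subunits of each complex, and of all 9736 measured genes, called lower in ligated saline than in sham rats (limma adjusted p under 0.05), in percent, under 3 scalings between arrays. Bars for complexes I and II stand above the bar for all genes under each scaling, and those for complexes III to V do so under equal medians and, for complex III, also on the deposited values.

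Complex I takes electrons from NADH through a flavin and a chain of iron-sulfur clusters to ubiquinone. Of the 6 measured subunits of the core that oxidises NADH and binds ubiquinone, 5 fell. Ndufs3, a core subunit of the arm that stands out into the matrix, had a log2 value of 10.98, 11.19 and 11.28 (lowest, median and highest) in sham rats and of 10.21, 10.39 and 10.66 in ligated saline rats. The ligated ghrelin rats had 10.60, 10.99, 10.65, 10.69 and 10.87. Sham and ligated saline rats did not overlap, and the change of -0.77 ± 0.09 (SE), or 0.586 times the sham level, was called (limma adjusted p = 2.02e-06).

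Ndufs7, which carries the last iron-sulfur cluster before ubiquinone, ranged from 11.68 to 11.90 in sham rats (median 11.82) and from 10.96 to 11.47 in ligated saline rats (median 11.17), again without overlap, a change of -0.63 ± 0.09 (limma adjusted p = 1.12e-05). Its values in ligated ghrelin rats were 11.38, 11.68, 11.43, 11.43 and 11.59, of which 1 lay at the lower end of the sham range and 4 below it. Ndufv1, which binds NADH and the flavin, fell by 0.38 ± 0.07 without overlap, Ndufs8, another iron-sulfur subunit, by 0.36 ± 0.08 and Ndufv2 by 0.26 ± 0.08, the last no longer called after quantile normalization (-0.15, adjusted p = 0.108). Ndufs1, the largest core subunit, was at -0.17 ± 0.07 and missed the threshold (limma adjusted p = 0.0544), with all 6 ligated saline rats below the sham mean. It was called under 7 of the other settings, among them equal array medians (-0.36), but after quantile normalization it was at -0.07 (limma adjusted p = 0.378).

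The accessory subunits, which surround the core and take part in assembly and stability, held the largest change. Ndufv3, an accessory of the NADH-binding module, had log2 values of 11.24, 11.69 and 11.88 (lowest, median, highest) in sham rats and 10.24, 10.73 and 11.06 in ligated saline rats. The groups did not overlap, and the level was 0.511 times that of sham (-0.97 ± 0.14, limma adjusted p = 2.25e-05). A second, dimmer probe set of Ndufv3 gave -0.76 ± 0.15.

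Ndufa6, a small accessory of the LYR protein family, had 11.57, 11.70 and 11.88 in sham rats and 10.82, 10.92 and 11.24 in ligated saline rats, a change of -0.72 ± 0.10 (limma adjusted p = 7.55e-06). Ndufc1, an accessory of the membrane arm, changed by -0.66 ± 0.09 and Ndufb11 by -0.57 ± 0.09, of which Ndufc1 showed no overlap and Ndufb11 overlapped at 1 rat of each group (10.99 in ligated saline rat 4 and 10.98 in sham rat 3). The other 15 accessory subunits that fell lay between -0.47 and -0.16: Ndufa1, Ndufa3, Ndufa5, Ndufa7, Ndufa8, Ndufa9, Ndufa11, Ndufab1, Ndufb1, Ndufb3, Ndufb5, Ndufb6, Ndufb8, Ndufb10 and Ndufs6. Ndufab1 is the mitochondrial acyl carrier protein. A second, dimmer probe set of Ndufa7 gave -0.21 ± 0.13 and was not called (limma adjusted p = 0.166). Ndufa1 and Ndufb8 lay next to the threshold (limma adjusted p = 0.0493 and 0.0495). After quantile normalization Ndufa1, Ndufa9, Ndufab1, Ndufb1, Ndufb5 and Ndufs6 were not called.

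Accessories that missed the threshold ranged from -0.17 (Ndufb7) to 0.06 (Ndufc2): Ndufb7, Ndufa12, Ndufa2, Ndufb2, Ndufb9, Ndufa13, Ndufs4, Ndufb4 and Ndufc2. Within complex I the change thus spread over about 1 log2 unit, from -0.97 to 0.06. In 13 of the 34 subunits sham and ligated saline rats did not overlap, every one lower, and over all genes 18.6% were lower without overlap.

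**Figure D2:**
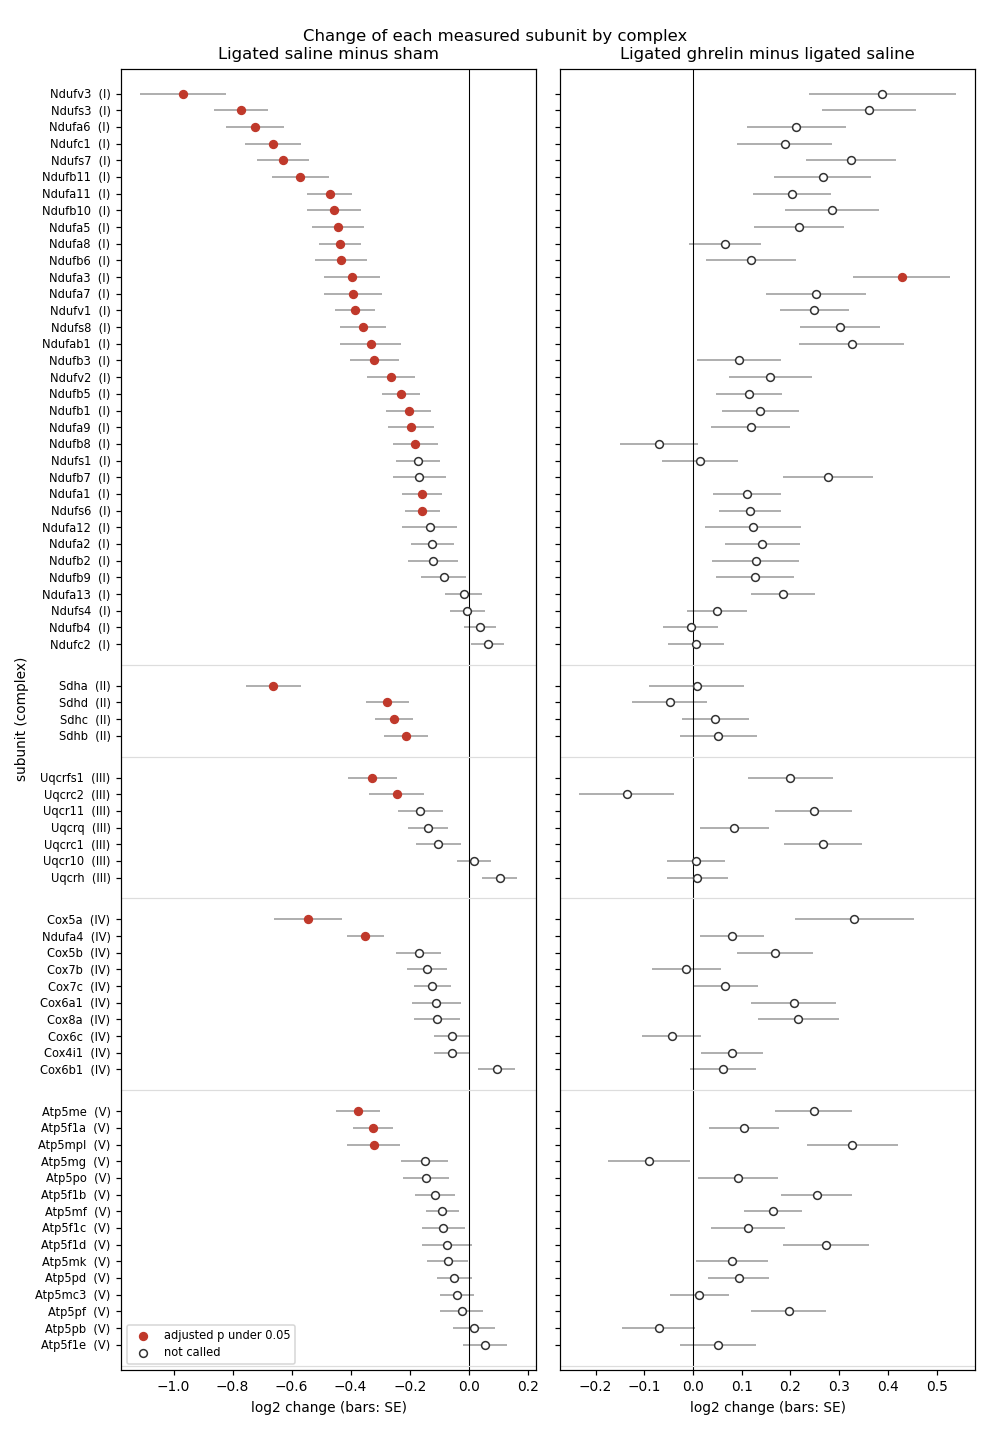
Log2 change of each of the 70 measured structural subunits, grouped by complex and ordered by the change after ligation, for ligated saline minus sham (left) and ligated ghrelin minus ligated saline (right). Points are limma estimates and bars are SE; filled points have an adjusted p under 0.05. On the left 35 points are filled, every one below 0, and on the right 1 (Ndufa3); the panels have different horizontal axes.

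Complex II, succinate dehydrogenase, is the member the respiratory chain shares with the tricarboxylic acid cycle. Its catalytic flavoprotein Sdha had log2 values of 12.04, 12.11 and 12.33 (lowest, median, highest) in sham rats and of 11.18, 11.48 and 11.68 in ligated saline rats. The ligated ghrelin rats had 11.51, 11.63, 11.20, 11.52 and 11.60. Every ligated rat of either treatment lay below every sham rat, and the change after ligation was -0.66 ± 0.09 (limma adjusted p = 1.22e-05), 0.632 times the sham level.

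The other 3 subunits fell by less. The iron-sulfur subunit Sdhb changed by -0.21 ± 0.07, the membrane anchors Sdhc by -0.25 ± 0.06 and Sdhd by -0.28 ± 0.07, and in each the ranges of sham and ligated saline rats overlapped. A second probe set of Sdhd gave -0.56 ± 0.11. Sdhb and Sdhd were not called after quantile normalization (-0.09 with adjusted p = 0.238, and -0.15 with adjusted p = 0.0552), nor was Sdhb without ligated saline rat 5 (-0.17, adjusted p = 0.0564).

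In complex III, which passes electrons from ubiquinol to cytochrome c, the Rieske iron-sulfur protein Uqcrfs1 fell. Its values were 12.31, 12.41 and 12.49 in sham and 11.94, 12.03 and 12.25 in ligated saline rats, without overlap, a change of -0.33 ± 0.08 (limma adjusted p = 0.00251). The core protein Uqcrc2 was called at -0.24 ± 0.09 (adjusted p = 0.0314), but a second probe set of it was at 0.003 ± 0.18 and the call was lost after quantile normalization (-0.14), with averaged probe sets (-0.12) and without any 1 of 6 rats: sham rat 1, 2, 3 or 6, or ligated saline rat 1 or 5 (-0.23, -0.22, -0.21, -0.23, -0.22 and -0.22). The other core protein, Uqcrc1, was at -0.10 ± 0.08, Uqcr11 at -0.16, Uqcrq at -0.14, Uqcr10 at 0.02 and the hinge protein Uqcrh at 0.10, none of them called.

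Complex IV, cytochrome c oxidase, reduces oxygen to water. Ndufa4, a complex IV subunit once assigned to complex I, had 13.06, 13.14 and 13.21 in sham and 12.70, 12.78 and 12.92 in ligated saline rats, without overlap, a change of -0.35 ± 0.06 (limma adjusted p = 0.000126). Cox5a fell by 0.54 ± 0.12 (adjusted p = 0.000657), also without overlap, but its probe set was dim, at 6.00 to 6.58 in sham and 5.48 to 5.92 in ligated saline rats, where nearly all other subunits exceeded 10. The remaining 8 (Cox4i1, Cox5b, Cox6a1, Cox6b1, Cox6c, Cox7b, Cox7c and Cox8a) lay between -0.17 and 0.09 and missed the threshold. Cox4i1, the large nuclear-encoded subunit, stood at 13.18, 13.20 and 13.43 in sham and 13.14, 13.17 and 13.25 in ligated saline rats, a difference of -0.06 with a 95% interval of -0.18 to 0.07.

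The liver forms of complex IV were the ones detected. Of the isoform pairs, Cox4i1, Cox6a1, Cox6b1, Cox8a and Ndufa4 were measured. Their heart, muscle, lung or testis counterparts Cox4i2, Cox6a2, Cox7a1, Cox7b2 and Cox8b, and the Ndufa4 paralog Ndufa4l2, lay below the filter level of 3.95 on all 17 arrays (log2 1.89 to 2.63). Cox6b2, known from testis, passed that level on 2 of 17 arrays, both ligated saline, where the group ranged from 2.86 to 4.51, against at most 2.91 in sham and 3.43 in ligated ghrelin rats. Of 9 muscle markers 7 were below the filter, Myh1 was bright and lower after ligation, and Tnnt2 was higher (5.23).

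The ATP synthase had the smallest median change of the complexes (-0.09), a difference that was not tested. Its catalytic F1 part has 5 kinds of subunit, of which Atp5f1a, the alpha subunit, fell. Atp5f1a had 12.88, 12.96 and 13.11 in sham and 12.49, 12.68 and 12.76 in ligated saline rats, without overlap, a change of -0.32 ± 0.07 (limma adjusted p = 0.000612). Its partner in the catalytic ring, the beta subunit Atp5f1b, had 13.10, 13.17 and 13.33 against 12.96, 13.04 and 13.19, which overlapped, and differed by -0.11 (95% interval -0.26 to 0.03). Atp5f1c, Atp5f1d and Atp5f1e were at -0.09, -0.07 and 0.06, and whether Atp5f1a changed by more than the others was not tested.

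In the membrane part and stalks, Atp5me fell by 0.38 ± 0.08 (limma adjusted p = 0.000385) and Atp5mpl by 0.32 ± 0.09 (adjusted p = 0.00488). The other 8, which are Atp5mc3 of the proton-carrying c ring, Atp5mf, Atp5mg, Atp5mk, Atp5pb, Atp5pd, Atp5pf and Atp5po, lay between -0.15 and 0.02 and missed the threshold. With array medians set equal Atp5f1b, Atp5f1c and Atp5f1d were called lower too (-0.30, -0.28 and -0.26).

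The mean over a complex's subunits was also taken in each rat, relative to the sham mean. For complex I it was -0.13, 0.002 and 0.07 (lowest, median, highest) in sham rats and -0.45, -0.32 and -0.14 in ligated saline rats, so that these groups did not overlap. In complex II it was -0.08, -0.02 and 0.09 in sham and -0.48, -0.37 and -0.19 in ligated saline rats, also without overlap. The means of complexes III, IV and V overlapped between sham and ligated saline rats, and that of complex V ran from -0.08 to 0.03 in sham and from -0.25 to 0.03 in ligated saline rats.

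The difference between the means of complex I and complex V within a rat does not depend on a scale factor common to the whole array. It ran from -0.05 to 0.05 in sham rats, from -0.26 to -0.14 in ligated saline rats and from -0.19 to -0.09 in ligated ghrelin rats, and neither ligated group overlapped with sham. Ligated saline rat 5 had the lowest mean of complexes I, III, IV and V, and ligated saline rat 4 the highest mean of all 5 complexes in its group. Among sham rats, rat 3 was lowest in each complex. Quantile normalization bends each array's scale, and under it the median changes of complexes I and V were -0.20 and -0.01, with -0.48 and -0.28 under equal medians.

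**Figure D3:**
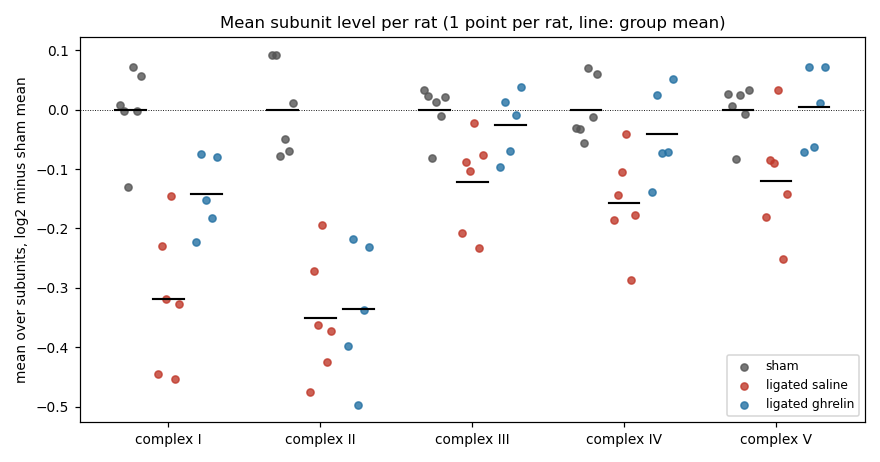
Mean log2 value over the measured subunits of each complex in each rat, relative to the sham mean; points are rats and lines are group means. Ligated saline rats lie below every sham rat in complexes I and II and overlap with them in complexes III to V, and ligated ghrelin rats lie between -0.22 and -0.07 in complex I and between -0.50 and -0.22 in complex II.

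The members that are not structural subunits moved in both directions and over a wider range (-1.28 to 1.47, against -0.97 to 0.10 in the subunits). Their median was -0.21, against -0.17 in the subunits. Of 13 measured 6 fell (46.2%) and 4 rose (30.8%), beside 27.2% and 37.5% of all genes, so the share that rose was not above that of all genes. Atp5if1, the inhibitor that stops the ATP synthase from running backwards, had 8.81, 8.99 and 9.16 (lowest, median, highest) in sham rats and 10.26, 10.33 and 10.78 in ligated saline rats. The ligated ghrelin rats had 10.11, 10.02, 9.95, 10.48 and 10.04. No ligated rat reached down to the sham range, and the rise after ligation was 2.76-fold (1.47 ± 0.11, limma adjusted p = 2.33e-08). It was 1.44 after quantile normalization and 1.28 with equal medians. Other probe sets of Atp5if1, which did not pass the filter and were not tested, gave -0.09 and -0.30 (mean log2 value 3.07 and 3.90).

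Complex II has 4 dedicated assembly factors, and they split. Sdhaf1, which helps to place the iron-sulfur clusters of Sdhb, had 8.69, 8.90 and 9.17 in sham and 9.90, 10.23 and 10.34 in ligated saline rats, a rise of 1.29 ± 0.10 (limma adjusted p = 1.60e-08) with no overlap. Sdhaf3, which acts in the same step, had 8.68, 8.87 and 9.43 in sham and 6.98, 7.79 and 8.05 in ligated saline rats, a fall to 0.413 times the sham level (-1.28 ± 0.17, adjusted p = 8.94e-06), also without overlap. Sdhaf2, which attaches the flavin to Sdha, fell by 0.30 ± 0.08, and Sdhaf4, a chaperone of flavinated Sdha, rose by 0.36 ± 0.08. The rise of Sdhaf4 was not called with equal array medians.

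Cox7a2l, a relative of a complex IV subunit that joins complexes III and IV into supercomplexes, rose from 10.70, 10.82 and 10.92 in sham to 11.33, 11.46 and 11.64 in ligated saline rats (0.67 ± 0.06, limma adjusted p = 1.93e-07). Ndufaf1, which builds the membrane arm of complex I, fell from 6.01, 6.17 and 6.29 to 4.44, 4.98 and 5.19 (-1.24 ± 0.14, adjusted p = 9.60e-07). Neither gene overlapped between sham and ligated saline rats. Ndufaf8 fell by 0.46 ± 0.13 and Ndufaf3 by 0.36 ± 0.08, while Ndufaf4 (-0.26), Ndufaf5 (-0.15) and Ndufaf7 (-0.001) missed the threshold. Cox6c-ps1, listed as a pseudogene of Cox6c, was called at -0.21 with values of 3.66 to 4.25, near the filter level, and its probes may share sequence with Cox6c.

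**Figure D4:**
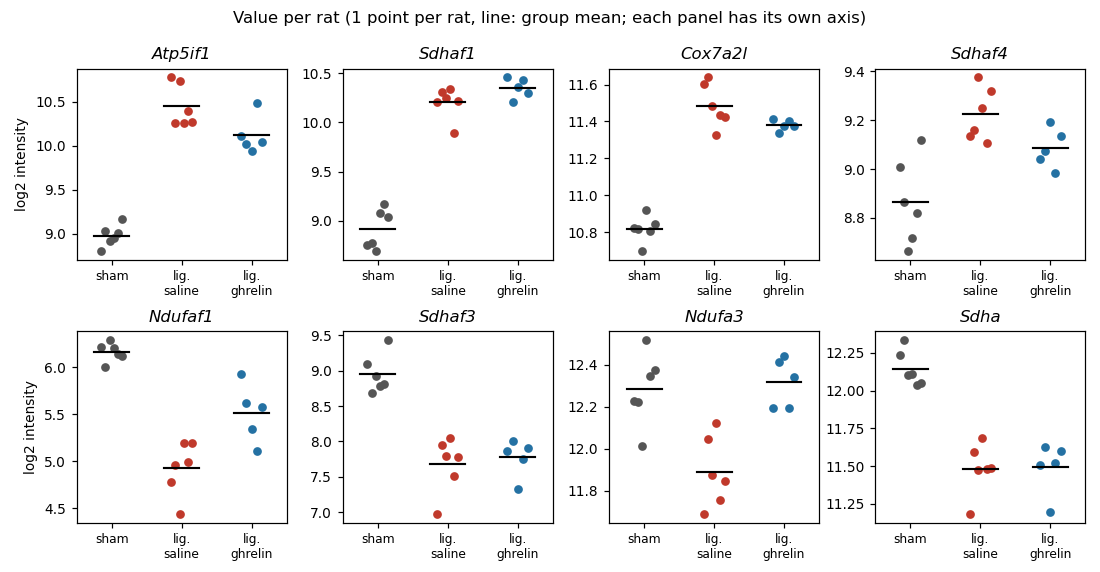
Log2 intensity of 8 members in each rat by group (points are rats, lines group means; each panel has its own vertical axis). Atp5if1, Sdhaf1 and Cox7a2l are higher in every ligated rat than in any sham rat, Sdhaf3, Ndufaf1 and Sdha lower, and Ndufa3 of the ligated ghrelin rats lies above that of every ligated saline rat.

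Among ligated rats, ghrelin was accompanied by few called changes in these genes. Of 83 measured members 2 were called, both higher (Ndufa3 and Ndufaf1) and none lower, beside a background of 2.34% of all genes called, 1.76% higher and 0.585% lower. At an unadjusted limma p under 0.05, 28 of the members were higher and 1 lower, beside 13.3% and 8.7% of all genes. Ndufa3, an accessory of complex I, had 11.69, 12.05, 11.87, 12.12, 11.75 and 11.84 in ligated saline rats and 12.20, 12.41, 12.44, 12.20 and 12.34 in ligated ghrelin rats. The groups did not overlap, the difference was 0.43 ± 0.10 (limma adjusted p = 0.0409), and the ghrelin values lay inside the sham range of 12.01 to 12.52.

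Ndufaf1 had 4.78, 4.96, 4.44, 5.19, 4.99 and 5.19 in ligated saline rats and 5.93, 5.62, 5.35, 5.11 and 5.58 in ligated ghrelin rats. The groups overlapped at ghrelin rat 4, and the difference was 0.59 ± 0.14 (limma adjusted p = 0.0439), with every ghrelin rat still below the sham range. Neither call held throughout: both were lost with no filter (adjusted p = 0.0518 for Ndufa3 and 0.0737 for Ndufaf1) and with only the 2 groups in the fit. The number of members called higher was 0 without ligated saline rat 1, 3, 5 or 6 or without ligated ghrelin rat 1, 2, 3 or 5, 1 without ligated saline rat 2, 9 without ligated saline rat 4 and 3 without ligated ghrelin rat 4.

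Most subunits had a positive difference without being called. Of the 70 structural subunits 62 had a difference above 0, against 51.1% of all genes, with a median of 0.12 against 0.0065. An unadjusted limma p under 0.05 with a positive sign was found in 27, and in 13.3% of all genes. The 8 at or under 0 were Ndufb4, Ndufb8, Sdhd, Uqcrc2, Cox6c, Cox7b, Atp5mg and Atp5pb. Among the 2001 genes with a mean log2 value over 10, 56.6% lay above 0 and 341 had such a p. Relative to sham, the mean over all subunits in each rat ran from -0.36 to -0.08 in ligated saline rats. In ligated ghrelin rats it ran from -0.18 to -0.03. The 2 groups thus overlapped, and they did so in the mean of each complex as well. Subunits next to the threshold were Ndufs3 (0.36 ± 0.10, adjusted p = 0.0554), Ndufs8 (0.30 ± 0.08, adjusted p = 0.0577), Ndufv1 (0.25 ± 0.07, adjusted p = 0.0660) and Ndufs7 (0.32 ± 0.09, adjusted p = 0.0661). The ATP synthase subunits Atp5f1b (0.25 ± 0.07, adjusted p = 0.0662) and Atp5mpl (0.33 ± 0.09, adjusted p = 0.0665) came directly after them. All of these were called with array medians set equal, where 4.06% of all genes were called higher. Ranges of ligated ghrelin and ligated saline rats stood apart, with ghrelin higher, in 3 subunits (Ndufa3, Uqcr11 and Atp5mf), and 3.04% of all genes did so.

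The median difference with ghrelin was 0.15 in complex I, 0.09 in complex III, 0.08 in complex IV and 0.10 in complex V, and 0.03 in complex II. Sdha showed almost none, at 0.01 with a 95% interval of -0.20 to 0.21. Sdhb, Sdhc and Sdhd were at 0.05, 0.05 and -0.05. In the same rats the 9 stellate cell and myofibroblast markers had a median difference of -0.60, all of them below 0 and 1 called lower, and their summed intensity was 15645 to 21000 with ghrelin against 18642 to 37915 without. The summed intensity of 6 macrophage markers was 8983 to 14630 with ghrelin against 13108 to 16342 without, and that of 6 lymphocyte markers 845 to 1467 against 1250 to 2260, while 2 neutrophil markers had 3620 to 7497 against 1688 to 6465; none of these that was measured was called. The part of these cells in the subunits' differences was not tested. Ligated ghrelin rat 3 had the highest ratio of 3' to 5' control probe sets for actin (2.62 in log2, against 1.75 to 2.37 in the other 16) and GAPDH (0.62 against 0.02 to 0.28), and the lowest Sdha, Sdhb and Sdhc of its group.

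Set against sham, ligated ghrelin rats also had subunits that were lower; this comparison holds ligation and ghrelin together and shares rats with the other 2. Of 70 structural subunits 19 (27.1%) were lower and 1 (1.43%) higher, beside 21.2% of all genes lower and 35% higher (56.2% called). Lower were 12 subunits of complex I, 3 of complex II, 1 of complex III (Uqcrc2), 1 of complex IV (Ndufa4) and 2 of complex V (Atp5f1a and Atp5mg). Among genes with a mean log2 value over 10, 29.9% were lower and 31.2% higher. Of the 67 subunits in that range 26.9% were lower, which is not above the share of those genes. Sdha was at -0.65 ± 0.10 here and at -0.66 after ligation with saline. Ndufa13, a complex I accessory also known as GRIM-19, was the subunit that was higher (0.17 ± 0.07, limma adjusted p = 0.0420). No subunit was called higher with equal medians, with array weights or with only the 2 groups in the fit. The same held without sham rat 1, 2, 3 or 5 or without ligated ghrelin rat 2, 4 or 5. With quantile normalization 10 subunits were higher and 13 lower, beside 30.5% and 27.6% of all genes.

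The 6 core subunits of complex I lay at these log2 changes from sham with ghrelin and with saline: Ndufs3 at -0.41 and -0.77, Ndufs7 at -0.31 and -0.63, Ndufs8 at -0.06 and -0.36, Ndufv1 at -0.14 and -0.38, Ndufv2 at -0.10 and -0.26, and Ndufs1 at -0.16 and -0.17. Ndufs1 differed least between the ligated groups among the 6 (0.01, 95% interval -0.15 to 0.18, limma adjusted p = 0.938). None of the 6 was called between ligated ghrelin and ligated saline rats on the deposited values. Atp5if1, Sdhaf1, Cox7a2l and Sdhaf4 were again higher (1.14, 1.44, 0.56 and 0.22) and Sdhaf3, Ndufaf1 and Ndufaf4 lower (-1.18, -0.65 and -0.38). The subunits' median was -0.06, against 0.09 for all genes, and the shares of calls that were higher were 62.2%, 52.4% after quantile normalization and 49.5% with equal medians.

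Genes that feed or build the chain were read from lists outside the naming rule, and their counts after ligation stand beside the 27.2% of all genes that were lower and the 37.5% that were higher. The 2 genes with the lowest p of each list are given, and others were named after their values were seen. Of 8 genes of cytochrome c and electron entry, 7 fell and none rose after ligation (median -0.54). Etfb and Etfdh carry electrons from fatty acid oxidation to ubiquinone. Etfb had 12.54, 12.60 and 12.68 in sham and 11.42, 11.67 and 11.86 in ligated saline rats (-0.95 ± 0.09, limma adjusted p = 1.80e-07), and Etfdh changed by -0.97 ± 0.15 (adjusted p = 3.19e-05). Neither overlapped between these groups.

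Of 21 measured assembly factors from outside the rule 16 fell and 1 (Cox17, a copper chaperone) rose, with a median of -0.55. Ecsit, which works with Ndufaf1 on complex I, fell by 1.11 ± 0.11 (limma adjusted p = 2.42e-07) and Cox16, of complex IV, by 0.94 ± 0.10 (adjusted p = 3.81e-07). Coenzyme Q synthesis had 8 of 12 lower and 1 higher (Coq4), with a median of -0.67. Its lowest p were those of Pdss2 (-1.04 ± 0.10), which makes the side chain, and Coq9 (-0.94 ± 0.10), while Coq10a changed by more (-1.49 ± 0.20). With array medians set equal the counts lower were 20 of 21 and 9 of 12, beside 39.9% of all genes, and with quantile normalization 16 of 21 and 10 of 12, beside 36.3%. The rise of Cox17 was not called with equal medians, and the rise of Coq4 was called under neither of the other scalings.

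Of 14 regulators of mitochondrial genes 9 fell (64.3%, against 27.2% of all genes) and 3 rose (21.4%, against 37.5%). Polrmt, the mitochondrial RNA polymerase, fell by 1.21 ± 0.12 (limma adjusted p = 2.23e-07), and Tfb2m, its initiation factor, by 1.10 ± 0.12 (adjusted p = 6.07e-07). The 3 that rose were Nrf1 (0.68), Gabpa (0.30) and the coactivator Ppargc1a (0.85), whose transcripts were dim for Nrf1 (4.29 to 5.18 in sham) and Ppargc1a (3.54 to 4.50). Under either of the other scalings 1 of the 14 was called higher, beside 32.1% of all genes with quantile normalization and 28.6% with equal medians.

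The tricarboxylic acid cycle had 6 of 11 lower (54.5%, against 27.2% of all genes), among them the succinyl-CoA ligase subunits Sucla2 (-0.81 ± 0.07) and Suclg2 (-0.56 ± 0.09), and 2 higher (18.2%, against 37.5%), citrate synthase Cs (0.64) and Idh3a (0.46). With quantile normalization 5 of the 11 were lower and 1 higher, beside 36.3% and 32.1% of all genes. With equal medians 7 were lower and 2 higher, beside 39.9% and 28.6%. Carriers and membrane proteins had 6 of 14 higher and 4 lower, shares of 42.9% and 28.6% that lie near the 37.5% and 27.2% of all genes. Slc25a4, an ADP/ATP carrier known from heart and muscle, had 7.01, 7.22 and 7.66 in sham and 9.84, 10.25 and 11.24 in ligated saline rats (3.09 ± 0.25, limma adjusted p = 2.91e-08), and the channel Vdac3 rose by 0.68 ± 0.07. The median of this list was 0.14, 0.16 after quantile normalization and -0.05 with equal medians. With ghrelin, Polrmt (0.68 ± 0.12, adjusted p = 0.0193) and Ecsit (0.52 ± 0.11, adjusted p = 0.0358) were the genes of these 6 lists that were called against ligated saline, both higher.

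**Figure D5:**
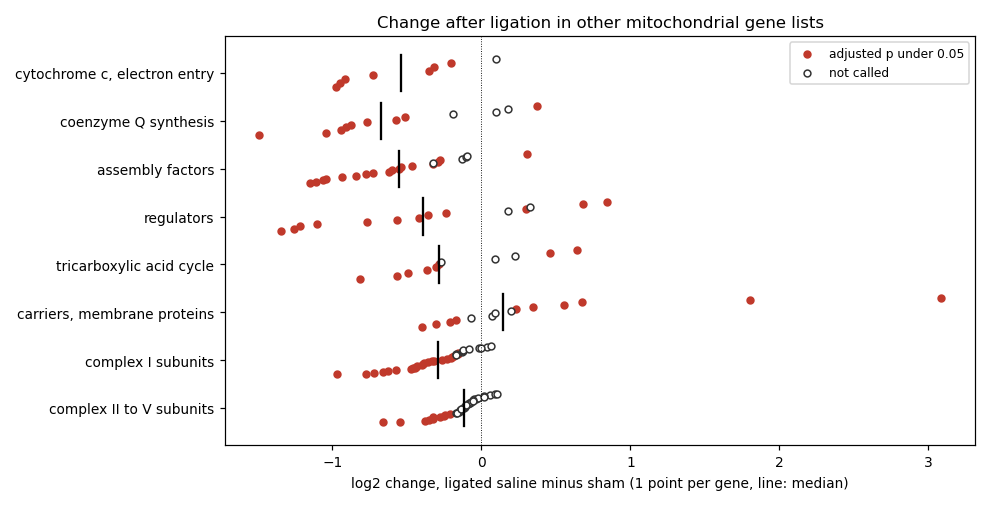
Log2 change, ligated saline minus sham, of each measured gene in 6 other mitochondrial gene lists and in the subunits of complex I and of complexes II to V; points are genes, filled where limma's adjusted p is under 0.05, and vertical lines are medians. Medians lie at -0.54 for electron entry, -0.67 for coenzyme Q synthesis, -0.55 for assembly factors and -0.29 for complex I, and at 0.14 for carriers and membrane proteins, the list that holds Slc25a4 at 3.09.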

How the data were processed

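The authors deposited 1 linear intensity per probe set and array, made with GCRMA per the submitters' processing notes, whose version is not given in the sources used here. Log2 was taken without a pseudocount. Of 31099 probe sets 57 controls were left out, and 15965 of the other 31042 passed the filter. The model had a mean for each of the 3 groups and no covariates (limma 3.58.1, R 4.3.3) and was tested on simulated data, and p-values were adjusted over the 15965 probe sets. The 7 probe sets that name a member together with other genes (among them Atp5mc1, Cox7a2 and Uqcrb) were not used.

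The genes named were the complex I core, complex II, the F1 part, the isoform pairs, per complex the 3 largest called changes in each direction, called members for ghrelin, and the 2 lowest p of each other list; members making up small counts, or next to a threshold, were named after their values were seen. Members and lists were chosen with earlier results of these data known. Each array is 1 rat, and the number of arrays limits the precision. Arrays of 1 group correlated at 0.988 to 0.995, so none was a copy of another in its group, though single values recurred between arrays. Changes are log2 ± SE with 95% intervals where given. The alternatives were 2 scalings, 2 filters, averaged probe sets, 2 other variance settings, 2 groups alone and each rat left out.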

Additional observations from a re-analysis of the deposited data

Results flagged for a closer look

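A rat was set apart from its group when its gap to the nearest other rat, divided by the group's range, passed Dixon's critical value (0.625 for 6 rats, 0.71 for 5). This happened in 9 of 117 groups examined, over 39 genes and complex means, where chance flags about 1 in 20 groups. Sham rat 3 was low in Ndufs3 (10.98, the other 5 at 11.18 to 11.28), in Sdhc (11.43, others 11.60 to 11.70), in the mean of complex I (-0.13, others -0.0027 to 0.07) and in the mean of complex V (-0.083, others -0.0077 to 0.033). Ligated saline rat 5 was low in Atp5f1a (12.49, others 12.66 to 12.76) and in Sdhaf1 (9.90, others 10.21 to 10.34). Ligated ghrelin rat 3 was low in Sdha (11.20, others 11.51 to 11.63). Sham rat 6 was high in Cox4i1 (13.43, others 13.18 to 13.25) and sham rat 1 in Atp5me (10.54, others 10.31 to 10.38). Without sham rat 3, 40 members were lower and 4 higher after ligation, and without ligated saline rat 5, 35 and 4, beside 41 and 4 with every rat.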

How the results depend on the processing

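No paired analysis was possible because the numbers in the sample titles are not shared between groups. After ligation, 41 members were lower and 4 higher. Without single rats these were 35 to 46 lower and 4 higher, and the medians kept their sign in every complex; the range was -0.33 to -0.24 for complex I and -0.12 to -0.07 for complex V. Quantile normalization gave 8 members higher and medians of -0.15 (complex II), -0.032 (III) and -0.022 (IV). Equal array medians gave 73 members lower and medians of -0.48, -0.45, -0.33, -0.31 and -0.28 (complexes I to V). No named change after ligation that was called turned its sign in any alternative.

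With ghrelin, 2 members were higher than in ligated saline rats on the deposited values, 11 with equal medians (medians 0.22 in complex I and 0.15 in complex III), 4 with the strict filter, 6 with averaged probe sets, 6 with trend and robust moderation, 0 with no filter, 0 with only the 2 groups, and 0 to 9 without single rats of these groups. Genes called over the whole array numbered 228, 366 with quantile normalization, 445 with equal medians, 105 with no filter, 337 with the strict filter, 379 with averaged probe sets, 339 with trend and robust moderation, 72 with only the 2 groups, and 22 (without ligated ghrelin rat 2) to 450 (without ligated saline rat 4). The cause was not tested.

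Against sham, ligated ghrelin rats had 5 members higher and 22 lower; 13 were higher with quantile normalization, 3 with equal medians (37 lower), 12 with no filter (34 lower), 3 with array weights, 3 with only the 2 groups, and 3 to 6 without single rats. Medians of complexes I, III, IV and V were -0.044, 0.11, 0.062 and 0.095 with quantile normalization, and those of complexes I to V -0.23, -0.39, -0.10, -0.15 and -0.11 with equal medians. Without a filter 14217 genes were tested, and 42.9% were called lower after ligation.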
